A study of Homo sapiens with 6 samples.

Results

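The enzymes described here reduce, use or break down vitamin K, or make and reduce ubiquinone, the other lipid quinone of human cells. They were chosen by gene symbol from a list of 9: VKORC1, VKORC1L1, GGCX, AIFM2, DHODH, COQ2, PDSS1, PDSS2 and CYP4F11. Of these, 8 matched 1 row each among the 33496 genes listed in every library, and all 8 had a mean of at least 1 FPKM and were tested. CYP4F11, a vitamin K omega-hydroxylase, matched no row, so its transcript level was not analysed here.

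The libraries came from ARPE-19, an established human line of retinal pigment epithelial (RPE) cells, labelled WT. In the Era group (n = 3) the cells received erastin, an inhibitor of the cystine transporter xCT that starts ferroptosis, a form of death driven by iron and lipid peroxidation, at 5 µM for 24 h. In the Era+VK group (n = 3) the same erastin treatment followed a 1 h pretreatment with vitamin K1 (VK1, phylloquinone) at 10 µM. All 6 libraries thus received erastin, cells without erastin were not analysed here, and whether the Era cells received the ethanol in which VK1 was dissolved is not stated in the sources used here. Nothing in the labels says that the libraries of a group came from separate cultures. The legend of the paper's RNA-seq figure speaks of 3 independent experiments, without tying them to single libraries. The p-values below therefore measure only the spread between these libraries, which may be technical.

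Vitamin K is a naphthoquinone. The membrane carboxylase GGCX oxidises its hydroquinone while it turns glutamate of client proteins into gamma-carboxyglutamate (Gla), and VKORC1 or VKORC1L1 reduces the resulting epoxide back to the quinone and on to the hydroquinone, all in the endoplasmic reticulum. FSP1, the protein of AIFM2, reduces vitamin K and ubiquinone with NAD(P)H at membranes, and the hydroquinones trap the lipid radicals of ferroptosis. Ubiquinone itself is built in mitochondria from a polyprenyl tail made by the PDSS1-PDSS2 synthase, which COQ2 joins to the ring, and DHODH, an enzyme of pyrimidine synthesis, reduces ubiquinone in the inner mitochondrial membrane.

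In these cells the enzymes were present at very unequal transcript levels, and 0 of the 8 differed between Era+VK and Era at a limma adjusted p under 0.05, a threshold that 0.618% of all genes tested passed. VKORC1 had the highest level and DHODH the lowest. PDSS1 was the only member whose groups did not overlap, as was the case for 22.1% of all genes tested, with lower values in Era+VK, an unadjusted p of 0.0225 (under 0.05 for 15.8% of all genes) and an adjusted p of 0.238 (limma).

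The promoters of the 3 enzymes that reduce vitamin K or its epoxide are shown because each holds the letters TGACNNNGC, the core of the antioxidant response element read by NRF2, the transcription factor that switches on many quinone reductases. The windows run from 250 bases before to 50 bases after the RefSeq start (GRCh38.p14), 5′ to 3′ in the direction of the gene, and the capitals mark the match, which lies on the opposite strand in all 3.

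VKORC1 (chr16:31094748-31095047, minus strand): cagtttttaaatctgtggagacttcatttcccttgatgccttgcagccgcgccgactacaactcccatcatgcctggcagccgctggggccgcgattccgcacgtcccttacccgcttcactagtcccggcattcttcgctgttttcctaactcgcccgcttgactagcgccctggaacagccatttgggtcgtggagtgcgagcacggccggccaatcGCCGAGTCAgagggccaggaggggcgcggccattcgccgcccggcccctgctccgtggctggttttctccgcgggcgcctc

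VKORC1L1 (chr7:65872824-65873123, plus strand): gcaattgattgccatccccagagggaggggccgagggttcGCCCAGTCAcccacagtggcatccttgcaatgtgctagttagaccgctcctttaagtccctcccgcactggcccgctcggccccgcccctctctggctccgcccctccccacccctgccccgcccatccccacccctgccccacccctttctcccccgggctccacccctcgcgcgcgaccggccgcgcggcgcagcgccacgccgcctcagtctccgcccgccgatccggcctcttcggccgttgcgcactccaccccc

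AIFM2 (chr10:70132776-70133075, minus strand): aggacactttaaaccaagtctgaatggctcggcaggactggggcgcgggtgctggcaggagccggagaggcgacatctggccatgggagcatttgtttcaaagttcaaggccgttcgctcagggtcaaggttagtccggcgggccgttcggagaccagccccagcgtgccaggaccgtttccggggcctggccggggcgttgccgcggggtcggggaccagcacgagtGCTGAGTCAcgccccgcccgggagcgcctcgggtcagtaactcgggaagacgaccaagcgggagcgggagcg

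The match began 31 bases before the start in VKORC1, 210 bases before it in VKORC1L1 and 22 bases before it in AIFM2. In AIFM2 the marked letters overlap a match to the AP-1 site TGANTCA, which 7.71% of 35116 RefSeq promoter windows held. The antioxidant core was found, on either strand, in 13.3% of those windows, and among the other 5 matched members in none. A promoter window of CYP4F11, the listed gene without a row, held it too, 156 bases before the start. A further window of that gene lacked it. The core was thus not particular to the reductases. The core of the ATF4 and C/EBP element, searched as TGATGNAA because ATF4 is the factor under study in these cells, stood in 3.62% of the windows and in no matched member. The E-box CACGTG (7.26% of windows) was found in DHODH, the cores of NRF1 (3.05%) and CREB (1.85%) in COQ2, and the TATA box TATAAA (11.5%) in none of the 8. GC content was 63.7% in the VKORC1 window, 72.7% in VKORC1L1, 67% in AIFM2 and 75% in PDSS1, with a median of 58.7% over all windows, and COQ2 was the only matched member below that median, at 49.7%. These matches describe the letters of the windows and were not tested for binding.

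By the GENCODE 29 annotation of GRCh38, which paired 31792 of the 33496 gene identifiers with a gene, the 8 genes lie on 6 chromosomes. The vitamin K cycle genes are VKORC1 (ENSG00000167397, chr16:31090842-31095980, minus strand), VKORC1L1 (ENSG00000196715, chr7:65873166-65959563, plus) and GGCX (ENSG00000115486, chr2:85544723-85561547, minus). The promoter window of VKORC1 shown above lies wholly inside the GENCODE span of that gene. The RefSeq start used for VKORC1 was therefore not the outermost GENCODE start. AIFM2 (ENSG00000042286) spans chr10:70098223-70132934 on the minus strand and DHODH (ENSG00000102967) chr16:72008588-72027664 on the plus strand. COQ2 (ENSG00000173085) lies at chr4:83261536-83284914 on the minus strand, PDSS1 (ENSG00000148459) at chr10:26697659-26746798 on the plus strand and PDSS2 (ENSG00000164494) at chr6:107152557-107459564 on the minus strand.

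The 6 libraries listed between 24143 and 24601 genes above 0 and between 11924 and 12027 at 1 FPKM or more. FPKM carry no counts and the low values showed no whole-read steps, so the depth is unknown and no counting interval is given. The RPE label was checked against 15 markers, of which 14 matched: KRT8, KRT18, OTX2 and MITF were at 15.49 FPKM or more in every library. BEST1, the chloride channel of pigment epithelium, varied widely within both groups, at 2.65, 0.65 and 56.98 FPKM in Era and at 36.45, 0.60 and 4.80 FPKM in Era+VK. By contrast, RPE65, RLBP1, TYR and DCT, which define differentiated pigment epithelium, stayed at 0.29 FPKM or less. TYRP1 and LRAT stayed at 0.84 FPKM or less, PMEL at 1.42 or less and RDH5 at 2.48 or less, while TJP1 was at 7.40 FPKM or more. The summed RPE markers ranged from 451.1 to 547.21 FPKM in Era and from 478.25 to 536.34 FPKM in Era+VK, with the highest sum of each group in the library where BEST1 was highest (Era 3 and Era+VK 1). Most of that sum was KRT8 and KRT18, with means of 181 and 233 FPKM in Era and 200 and 225 FPKM in Era+VK. Libraries Era+VK 2 and 3 stood apart. The 16 erythroid markers summed to 241.22 and 233.88 FPKM there, against 0.40 FPKM in Era+VK 1 and 0.31, 0.41 and 0.63 FPKM in the Era libraries, with HBG2, HBE1, HBG1 and HBA2 the most abundant and the adult globin HBB at 0.04 FPKM or less. The differences of the 8 members, of SLC7A11 and of several list genes are therefore also given without them, a setting that leaves a lone Era+VK library, assumed to vary like the others. Of the 9 photoreceptor, endothelial, fibroblast and leukocyte markers 8 matched, and PDGFRB alone reached 1 FPKM, at a mean of 27.3 FPKM in Era and 35.9 in Era+VK (log2 difference 0.38, limma adjusted p = 0.122). The summed list was 26.16 to 30.19 FPKM in Era and 32.96 to 41.83 FPKM in Era+VK, and its part in the results below was not tested.

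**Figure D1:**
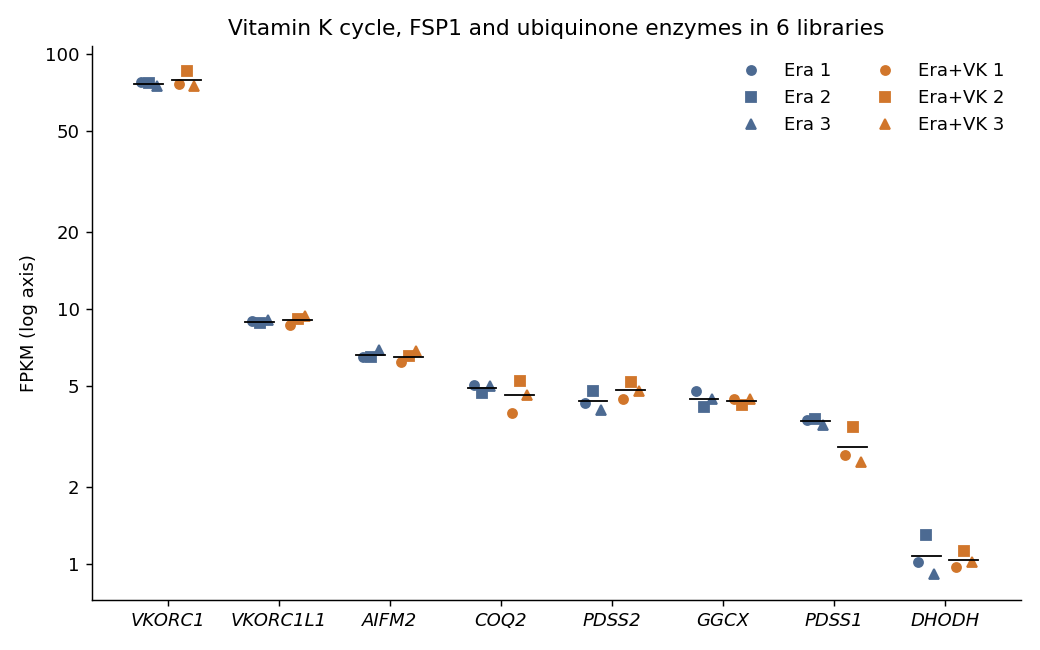
FPKM of the 8 matched enzymes in each library, on a log axis, with circles, squares and triangles for libraries 1, 2 and 3 of Era (blue) and Era+VK (orange) and a line at each group mean. VKORC1 lies 8.64-fold above VKORC1L1, DHODH lies near 1 FPKM, and the groups separate only for PDSS1.

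The order of levels, read per length in FPKM over the 6 libraries, was VKORC1, VKORC1L1, AIFM2, COQ2, PDSS2, GGCX, PDSS1 and DHODH. VKORC1 had a mean of 77.6 FPKM and ranked 374 of the 31325 genes with a mean above 0. VKORC1L1 followed at 8.98 FPKM (rank 4409), AIFM2 at 6.56 FPKM (rank 5725) and COQ2 at 4.74 FPKM (rank 7048). PDSS2 had 4.58 FPKM, GGCX 4.4 FPKM, PDSS1 3.25 FPKM and DHODH 1.06 FPKM (rank 11818), the last just above the limit for testing. The ranges of COQ2 and PDSS2 overlapped, as did those of PDSS2 and GGCX, and these neighbours stood in that order in 3 and 4 of 6 libraries. All other neighbours kept their order in 6 of 6 libraries.

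For none of the 3 vitamin K cycle genes did the groups differ beyond the spread between libraries. In bulk RNA, fewer cells with a transcript and less of it per cell cannot be told apart. VKORC1, the epoxide reductase that warfarin blocks, was at 77.37, 76.73 and 75.01 FPKM in Era 1 to 3 and at 76.21, 85.52 and 74.46 FPKM in Era+VK 1 to 3. The single high value was that of Era+VK 2, and the groups overlapped. VKORC1 averaged 76.4 ± 1.22 FPKM without and 78.7 ± 5.95 FPKM with VK1 (SD, n = 3 each), a difference of 0.04 on the log2(FPKM + 1) scale (SE 0.058, 95% interval -0.09 to 0.18, limma adjusted p = 0.776). Without Era+VK 2 the difference was -0.02, and without Era+VK 2 and 3 it was -0.003. VKORC1 shares 761 exonic bases with the gene AC135050.2 on the same strand and 1272 with AC135050.7 on the opposite strand, and 64.4% of its 50-base transcript windows occur in these, so reads could be assigned to either. They were listed at 0.503 and 0.423 FPKM on average.

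VKORC1L1, the paralog that carries out the same reduction, was at 8.97, 8.79 and 9.01 FPKM in Era and at 8.61, 9.09 and 9.40 FPKM in Era+VK. Its values varied least of the 8, with a coefficient of variation of 3.0% over the 6 libraries, and the Era values lay inside the Era+VK range. The difference was 0.02 (SE 0.047, interval -0.09 to 0.12, limma adjusted p = 0.907), and -0.05 without Era+VK 2 and 3. The ratio of VKORC1 to VKORC1L1 was 8.63, 8.73 and 8.33 in Era and 8.85, 9.41 and 7.92 in Era+VK, so the transcript excess of VKORC1 was of the same order in every library. The paralogs shared no identical 50-base stretch of transcript, and similar stretches with mismatches were not searched.

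GGCX, the carboxylase that spends the hydroquinone, was at 4.77, 4.11 and 4.42 FPKM in Era and at 4.43, 4.22 and 4.45 FPKM in Era+VK. All 3 Era+VK values lay inside the Era range. The difference was -0.02 (SE 0.060, interval -0.15 to 0.12, limma adjusted p = 0.924), and 0.0009 without Era+VK 2 and 3. GGCX shares 558 exonic bases with MAT2A on the opposite strand, whose level of 57.4 FPKM was far higher, and 5.46% of the 50-base windows of the GGCX transcripts occur in MAT2A. MAT2A itself differed by -0.12 (limma adjusted p = 0.363). The strand setting of the libraries is not stated in the sources used here, so the part of the GGCX level that stems from MAT2A reads is unknown. Since MAT2A was far higher, that part is not bounded by the share of windows, and the place of GGCX in the order of levels is uncertain too.

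AIFM2, the gene of FSP1, was at 6.46, 6.48 and 6.92 FPKM in Era and at 6.18, 6.52 and 6.82 FPKM in Era+VK. The libraries of the groups interleaved. The means were 6.62 ± 0.26 and 6.51 ± 0.320 FPKM (SD, n = 3 each), a difference of -0.02 (SE 0.053, interval -0.15 to 0.10, limma adjusted p = 0.877). Without Era+VK 2 and 3 it was -0.09 (adjusted p = 0.598). Back-transformed, the interval of the FPKM + 1 ratio ran from 0.904 to 1.07.

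Set together, VKORC1, VKORC1L1 and AIFM2 summed to between 90.68 FPKM (Era+VK 3) and 101.13 FPKM (Era+VK 2). VKORC1 made up 82.1% to 84.6% of that sum, VKORC1L1 8.99% to 10.4%, and AIFM2 6.45% to 7.61%, and each of these ranges was spanned by the Era+VK libraries except the upper end for AIFM2, which was Era 3. These are shares of transcript per length, not of protein or activity.

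DHODH, which couples dihydroorotate oxidation to ubiquinone, was at 1.02, 1.30 and 0.91 FPKM in Era and at 0.97, 1.12 and 1.02 FPKM in Era+VK. It was the only tested member under 1 FPKM in any library, and its coefficient of variation was 13%. The difference was -0.02 (SE 0.089, interval -0.23 to 0.18, limma adjusted p = 0.924), and -0.07 without Era+VK 2 and 3, and the pseudocount of 1 compresses differences at so low a level.

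COQ2, the polyprenyl transferase that joins tail and ring, was at 5.01, 4.68 and 4.98 FPKM in Era and at 3.91, 5.24 and 4.59 FPKM in Era+VK. Era+VK 1 held the lowest value and Era+VK 2 the highest, with the Era libraries between. The difference was -0.08 (SE 0.087, interval -0.29 to 0.12, limma adjusted p = 0.679), 0.004 without Era+VK 1, and -0.26 without Era+VK 2 and 3 (adjusted p = 0.233).

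PDSS1 and PDSS2 encode the 2 subunits of the synthase that makes the decaprenyl tail of ubiquinone. PDSS1, the catalytic subunit, was at 3.67, 3.70 and 3.50 FPKM in Era and at 2.67, 3.46 and 2.52 FPKM in Era+VK. Each Era+VK value was below each Era value, but Era+VK 2 came within 0.04 FPKM of Era 3. The means were 3.62 ± 0.108 and 2.88 ± 0.505 FPKM (SD, n = 3 each), a change of -20.4%. The difference was -0.26 (SE 0.091, interval -0.47 to -0.05, limma unadjusted p = 0.0225, adjusted p = 0.238), and the exact two-sided permutation test gave 0.1, the smallest p that 3 against 3 libraries allow. It was -0.33 without Era+VK 2 and 3 (adjusted p = 0.19). Leaving out 1 library at a time gave -0.36 to -0.19, the first without Era+VK 2 and the second without Era+VK 3. PDSS1 shares 206 exonic bases with ABI1 on the opposite strand (14.8 FPKM, log2 difference 0.01, adjusted p = 0.933), and 7.85% of its 50-base transcript windows occur in ABI1, 1.6% in the pseudogene PDSS1P2 and 0.600% in PDSS1P1. As for GGCX, the part of the PDSS1 level that stems from the overlapping gene is unknown and not bounded by the share of windows. It was not removed from the difference or from the ratio of PDSS2 to PDSS1.

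PDSS2, the other subunit, was at 4.29, 4.76 and 4.01 FPKM in Era and at 4.45, 5.19 and 4.77 FPKM in Era+VK. The Era+VK values reached higher, and Era+VK 1 lay inside the Era range. The difference was 0.12 (SE 0.072, interval -0.05 to 0.29, limma adjusted p = 0.471), and 0.03 without Era+VK 2 and 3. The ratio of PDSS2 to PDSS1 within a library was 1.17, 1.29 and 1.15 in Era and 1.67, 1.5 and 1.89 in Era+VK, with means of 1.2 ± 0.0755 and 1.69 ± 0.197 (SD, n = 3 each). Every Era+VK library was above every Era library in that ratio. It was 1 of 5 ratios between members that were computed, was looked at with the PDSS1 values known, and was the only 1 whose groups did not overlap, and no test was made of it.

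**Figure D2:**
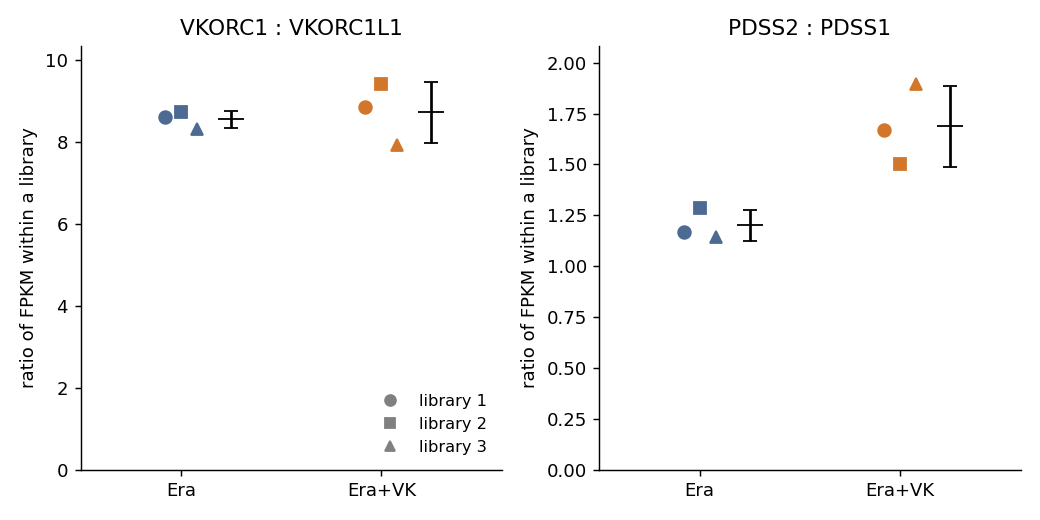
Ratio of VKORC1 to VKORC1L1 (left) and of PDSS2 to PDSS1 (right) in each library of Era (blue) and Era+VK (orange), on axes from 0, with the mean and SD of 3 libraries beside the points. The groups overlap on the left, whereas on the right Era lies between 1.15 and 1.29 and Era+VK between 1.5 and 1.89.

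Over the 8 members, 0 had a limma adjusted p under 0.05 and 1 (PDSS1) an unadjusted p under 0.05. Of all 11981 genes tested, 74 (0.618%) passed the adjusted threshold, 16 higher and 58 lower in Era+VK (11 and 119 with each library centred on its median), and 15.8% had an unadjusted p under 0.05. Groups did not overlap for 1 of 8 members, against 22.1% of all genes tested in either direction and 7.04% lower in Era+VK. A count of 1 among 8 members lies near each of these shares. Differences were above 0 for 3 members and below 0 for 5, with a median of -0.02, beside 0.03 over all genes tested. The 95% intervals reached 0.11 to 0.21 to either side of the estimate, and 7 of 8 lay within 0.3 of 0 on the log2(FPKM + 1) scale.

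**Figure D3:**
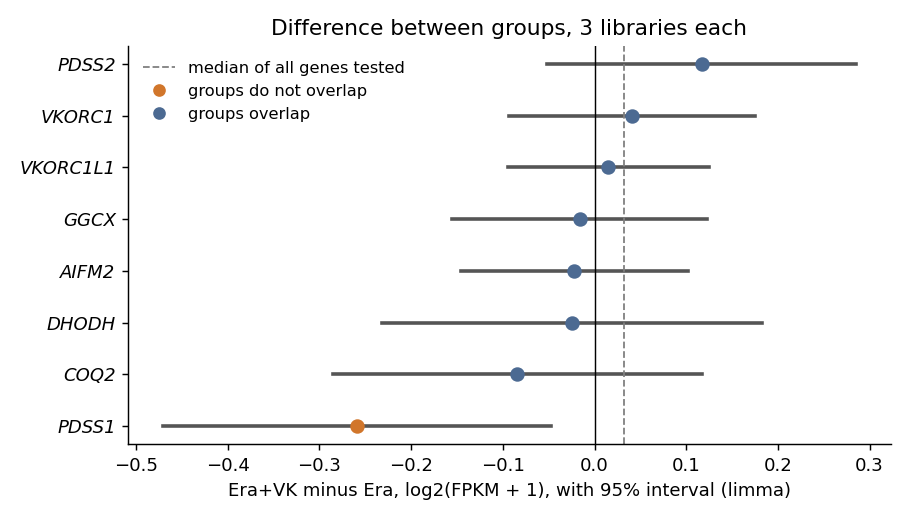
Difference between Era+VK and Era for the 8 enzymes on the log2(FPKM + 1) scale, with 95% intervals from limma. The solid line is 0, the dashed line the median of all genes tested (0.03), and PDSS1 (orange, -0.26) is the only gene whose groups do not overlap and whose interval leaves out 0.

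The gene ontology terms carried by the files were searched for words in terms of any kind, so a match need not give the place of a protein. Terms naming mitochondria were attached to AIFM2, DHODH, COQ2, PDSS1 and PDSS2, and to 12.3% of all genes tested. Terms naming the endoplasmic reticulum were attached to VKORC1, VKORC1L1 and GGCX, and to 11.8% of genes tested. As a description, the genes whose log2 values ran most like VKORC1 over the 6 libraries were TPT1 (Pearson r = 0.994) and PAIP2 (0.989), those most like VKORC1L1 were SMIM13 (0.992) and ARL2BP (0.986), and those most like AIFM2 were the gene listed as ENSG00000285018 (0.997) and SNORA73B (0.975). Over the same 6 points, 62 genes had an r above 0.95 with VKORC1, 20 with VKORC1L1 and 3 with AIFM2. VKORC1 was at 85.52 FPKM in Era+VK 2 and at 77.37 FPKM or less elsewhere, so its r values weigh that library most.

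The surrounding pathways were described with 10 lists of 91 genes, 68 of them tested. A single gene passed the adjusted threshold, 11 (16.2%) had an unadjusted p under 0.05, 9 above and 2 below 0, and the groups of 10 (14.7%) did not overlap, shares to be read beside the 15.8% and 22.1% of all genes. Genes named in the next paragraphs are the most abundant of each list, and those with an unadjusted p under 0.05, CYP4F3, POSTN and the clotting factor genes are named after their values were seen.

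Of the enzymes that build and modify the ubiquinone ring, 12 of 14 were tested, 0 passed, and the median difference was 0.03. FDXR, the reductase that feeds electrons to the ring hydroxylase COQ6, was the most abundant, averaging 8.72 FPKM without and 9.26 FPKM with VK1 (log2 difference 0.08, limma adjusted p = 0.618). COQ9, the lipid-binding partner of the hydroxylase COQ7, differed by 0.13 (adjusted p = 0.362), the ring methyltransferase COQ5 by -0.08 (0.527) and the ferredoxin FDX2 by 0.23 (0.378). FDX2 was high in the libraries with erythroid transcripts, at 9.31 and 8.99 FPKM in Era+VK 2 and 3, while Era+VK 1, at 6.65 FPKM, lay inside the Era range of 6.30 to 7.26 FPKM. Without Era+VK 2 and 3 the difference of FDX2 was -0.04 (limma adjusted p = 0.845). COQ10B, a ubiquinone-binding START-domain protein, was the single gene with an unadjusted p under 0.05, at 7.42, 6.47 and 6.62 FPKM in Era and at 8.57, 7.51 and 7.97 FPKM in Era+VK (difference 0.20, adjusted p = 0.215).

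The mevalonate and prenyl steps that supply the tail had the highest median of the pathway lists, 0.10 over 9 tested genes, with 6 above 0 and 0 past the adjusted threshold. FDPS, which makes farnesyl diphosphate, averaged 26.4 FPKM without and 26.9 FPKM with VK1 (log2 difference 0.03, limma adjusted p = 0.839). The squalene synthase FDFT1 differed by 0.10 (adjusted p = 0.516), PMVK by -0.06 (0.798) and the isomerase IDI1 by 0.22 (0.366). The mevalonate kinase MVK (0.20, adjusted p = 0.276) and the decarboxylase MVD (0.21, 0.306) had unadjusted p-values under 0.05.

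The 8 quinone reductases outside the cycle had means between 5.86 and 333 FPKM, 4 of them below VKORC1L1, and 0 passed the adjusted threshold. TXNRD1, the cytosolic thioredoxin reductase, averaged 334 FPKM without and 331 FPKM with VK1 (log2 difference -0.02, limma adjusted p = 0.924). NQO1, the cytosolic quinone reductase and a classic NRF2 target, was at 223.07, 214.02 and 218.52 FPKM in Era and at 181.83, 204.07 and 195.50 FPKM in Era+VK. Its groups did not overlap, with a difference of -0.17 (SE 0.053, unadjusted p = 0.0123, adjusted p = 0.197), and of -0.26 without Era+VK 2 and 3 (adjusted p = 0.149). The carbonyl reductases CBR1 (0.04, adjusted p = 0.768) and CBR3 (0.18, adjusted p = 0.159) and the cytochrome b5 reductase CYB5R3 (0.03, adjusted p = 0.860) completed the named genes, CBR3 with groups that did not overlap.

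The dehydrogenases that hand electrons to ubiquinone beside DHODH had 8 of 9 genes tested, 7 above 0, a median of 0.07 and 0 past the threshold. SDHC and SDHD, the membrane anchors of succinate dehydrogenase, differed by 0.07 and 0.02 (limma adjusted p = 0.601 and 0.939). SDHB and SDHA, its catalytic subunits, differed by 0.17 and 0.13 (adjusted p = 0.285 and 0.313), both with unadjusted p-values under 0.05. SDHB was at 21.82 and 21.29 FPKM in Era+VK 2 and 3, and at 19.03 FPKM in Era+VK 1, inside the Era range of 17.19 to 19.66 FPKM. SDHA was at 18.58 and 18.52 FPKM there, and at 16.85 FPKM in Era+VK 1, inside the Era range of 15.36 to 16.88 FPKM. Without Era+VK 2 and 3 the differences were 0.06 for SDHB, 0.05 for SDHA, -0.02 for SDHC and -0.09 for SDHD (adjusted p = 0.753, 0.778, 0.829 and 0.603). In pyrimidine synthesis, the other role of DHODH, the differences of CMPK1, CAD, UMPS and CTPS2 were 0.03, -0.10, -0.06 and 0.12, none of the 5 tested genes passed, and the median was -0.01.

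On the side of vitamin K use, 8 partners of the cycle in the endoplasmic reticulum were tested, 0 passed and the median was -0.02. P4HB, the disulfide isomerase known as PDI, averaged 145 FPKM without and 142 FPKM with VK1 (log2 difference -0.03, limma adjusted p = 0.793). PDIA6 differed by 0.02 (0.854), CALU, an inhibitor of GGCX, by -0.02 (0.904) and EPHX1, the microsomal epoxide hydrolase, by 0.16 (0.209). EPHX1 and the thioredoxin-like TMX4 (0.24, adjusted p = 0.159) had groups that did not overlap. Of 15 Gla protein genes, the clients of GGCX, 11 matched and 3 were tested. PROS1, protein S, averaged 46.4 FPKM without and 48.1 FPKM with VK1 (0.05, adjusted p = 0.576), GAS6, a ligand of the TAM receptors, at 10.2 and 9.80 FPKM (-0.06, 0.710), and the membrane Gla protein PRRG1 at 5.29 and 5.61 FPKM (0.07, 0.519). The clotting factor genes F2, F10, PROC and PROZ were at 0.13 FPKM or less in every library and POSTN was listed at 0 throughout. The receptors of lipoprotein uptake, a route of vitamin K into cells, differed by -0.13 for LRP1 and -0.04 for SCARB1, with adjusted p of 0.546 and 0.799. LRP1 had its lowest value, 91.20 FPKM, in Era+VK 2, and differed by -0.02 without Era+VK 2 and 3 (adjusted p = 0.871). Of 5 CYP4F relatives of CYP4F11, CYP4F3 alone matched, at 0.01 FPKM or less in every library.

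Among genes that place FSP1 or defend lipids in parallel, 12 of 12 were tested and SLC7A11 alone passed. SLC7A11, the cystine transporter subunit on which erastin acts, was at 7.22, 9.29 and 7.84 FPKM in Era and at 4.50, 4.41 and 5.33 FPKM in Era+VK. It fell by 0.66 on the log2(FPKM + 1) scale (SE 0.096, limma adjusted p = 0.0337). The direction held in 15 of 15 alternative settings and the call in 6 of them, with adjusted p from 0.0179 to 0.161, among them 0.0832, 0.111 and 0.133 without Era 1, 2 and 3, 0.0911 and 0.0650 without Era+VK 1 and 2, and 0.126 (difference -0.72) without Era+VK 2 and 3. GPX4, the glutathione peroxidase of membrane lipids, averaged 84.3 FPKM without and 92.2 FPKM with VK1 (0.13, adjusted p = 0.382), and differed by 0.05 without Era+VK 2 and 3 (0.806). STARD7, a carrier of ubiquinone, differed by 0.04 (0.734) and SPR, which makes tetrahydrobiopterin, by 0.06 (0.705), and the median of the list was 0.03.

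**Figure D4:**
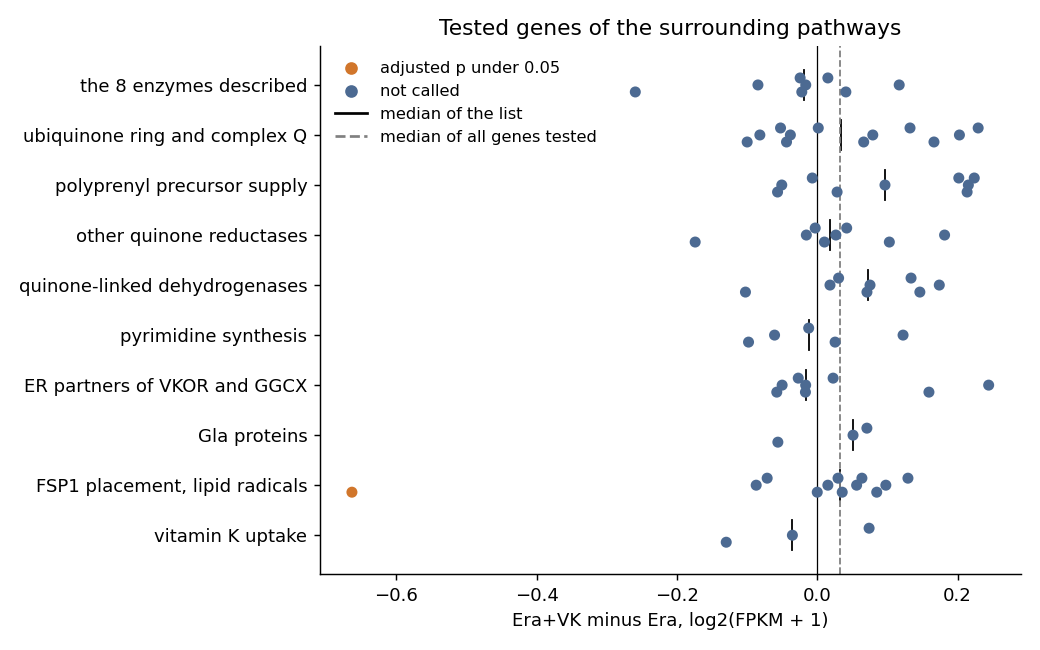
Difference between Era+VK and Era on the log2(FPKM + 1) scale for the tested genes of each surrounding list (a dot per gene, shifted vertically to avoid overlap), with the 8 enzymes in the top row. Black bars are list medians, the dashed line is the median of all genes tested (0.03), and SLC7A11 (orange, -0.66) is the only gene past an adjusted p of 0.05.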

How the data were processed

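ARPE-19 RNA of 3 Era and 3 Era+VK libraries was extracted with TRIzol (RIN above 7.0 per the labels) and sequenced as paired-end reads on an Illumina NovaSeq instrument. The authors deposited FPKM per gene and library with 2 decimals. The submitters' processing notes name cutadapt, HISAT2 and StringTie 2.1.6 and list the build mm10, although the gene identifiers are those of human Ensembl genes, and the annotation and strand setting are not given in the sources used here. The labels number the cell line upward from ARPE-19 over the samples, whereas all titles name ARPE-19, which was taken for all 6. FPKM are relative to each library's mapped fragments.

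From there, log2(FPKM + 1) of the 11981 genes whose mean over the 6 libraries reached 1 FPKM was compared between the groups with limma 3.58.1 (R 4.3.3, empirical Bayes with a trend), two-sided, with Benjamini-Hochberg adjustment over all genes tested at a threshold of 0.05. Differences are Era+VK minus Era and understate the change of low genes. The fit was tested on simulated data. Motifs were searched on both strands of RefSeq promoter windows, and shared windows of 50 bases were counted over GENCODE 29 transcripts. Same-numbered libraries were not paired. The members and gene lists were chosen with earlier results of these data known. Named genes are the members, list genes past the threshold, the 4 most abundant tested genes of each list, and for VKORC1, VKORC1L1 and AIFM2 the 2 genes with the highest r. A few list genes that the rule would name are counted in their lists but not reported here by name.

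The alternatives were a pseudocount of 0.1, other filters on low values, quantile normalization, median centring, rescaling without mitochondrially encoded genes, no trend, a replicate block, and leaving out each library or Era+VK 2 and 3.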

Additional observations from a re-analysis of the deposited data

How the results depend on the processing

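Over 15 alternatives no member passed an adjusted p of 0.05 (limma, lowest 0.0615, for PDSS1), and 105 of 119 log2 differences of members kept their direction. DHODH could not be tested where each library had to reach 1 FPKM. The 14 that turned sign were near 0. With median centring the difference was -0.00107 for VKORC1 and -0.0267 for VKORC1L1, which was -0.0272 with quantile normalization. Without Era+VK 2 and 3 it was -0.00287 for VKORC1, -0.0462 for VKORC1L1 and 0.00089 for GGCX. Leaving out 1 library at a time gave -0.0194 to 0.0793 for VKORC1, -0.0111 to 0.0459 for VKORC1L1, -0.0597 to 0.0279 for GGCX, -0.0519 to 0.00971 for AIFM2, -0.0825 to 0.0516 for DHODH, -0.169 to 0.0044 for COQ2, -0.36 to -0.19 for PDSS1 and 0.07 to 0.17 for PDSS2.

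The count over all genes, 74, was 1 without a filter, 122 with at least 1 FPKM in every library, 112 with quantile normalization, 130 with median centring, 44 without the trend, 35 without Era+VK 2 and 3, and 2 to 70 leaving out 1 library at a time: 2 without Era 1, 2 without Era 2, 5 without Era 3 and 42 without Era+VK 3. The pathway list count, 1 (SLC7A11), was 0 without a filter, without the trend, and without Era+VK 2 and 3, and 0 to 1 leaving out 1 library at a time. The causes were not tested, beyond the fewer libraries or other gene sets that some alternatives entail.

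The deviations of same-numbered libraries correlated weakly, at 0.0709, 0.104 and 0.0210. Era 1 and Era 2 each correlated best with the Era+VK library of the same number, whereas Era 3 correlated best with Era+VK 1 (0.0401). These values do not settle whether the libraries were paired. With the replicate block 42 genes, 0 members and 0 pathway list genes passed. The unknown depth limits the low genes most, DHODH among them.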
